A study of Mus musculus with 27 samples.

Results

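The genes described here encode proteins of the cytoplasmic ribosome. The set held 55 of them, 38 for proteins of the large subunit (Rpl) and 17 for proteins of the small subunit (Rps). It was drawn up by gene name and not by a methylation value, although earlier results of these data were known. Each gene was measured through the windows of 100 CpGs that overlap its body on the GRCm38 mouse genome. These were 171 of the 453239 nuclear windows, and the 55 genes were among 21430 protein-coding genes with a value. All 171 windows had a value in every library and none was shared by 2 of the 55 genes.

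The libraries were whole-genome bisulfite libraries, in which unmethylated cytosine is converted and methylated cytosine is not, so that the percent of methylated CpG can be read. Mouse embryonic stem cells grown in 2i/Lif, a medium that holds them in the naive state, were sampled on D0 and as they turned into epiblast-like cells on D1 and D2. The line TET_KO lacks Tet1, Tet2 and Tet3 together, TET_WT is its wild-type control, and DNMT_WT is the wild-type control that belongs to another knock-out, of Dnmt1, Dnmt3a and Dnmt3b, which is not analysed here. Each line and day had 3 libraries, 27 in all. Each value is an average over many cells, so fewer methylated cells and less methylation in each cell cannot be told apart. The knock-out alleles, the number of clones and whether replicates came from separate cultures are not given in the labels, so the spread that the p-values rest on is that between libraries and may be technical.

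Ribosomal protein genes are among the most strongly transcribed genes of a growing cell, and stem cells make ribosomes at a high rate. The genes are mostly short, with a start inside a CpG island, a CpG-rich stretch that is usually free of methylation. Dnmt3a and Dnmt3b place new methyl groups on CpGs, Dnmt1 copies them at replication, and the Tet enzymes oxidise 5-methylcytosine, which leads to its loss. Cells in 2i/Lif carry little methylation and gain it as they move to the epiblast-like state. Bisulfite treatment reads 5-hydroxymethylcytosine, the first product of the Tet enzymes, as methylated.

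RefSeq lists a transcription start on GRCm38.p6 for 43 of the 55 genes. The sequences below, printed 5′ to 3′ from 250 bases before to 20 bases after the start with each CpG in capitals, show the extremes that the values turn on. Rpl13a, Rps18 and Rpl5 had start windows at 0% in TET_KO on D2. Rpl22 and Rpl27 had the highest start windows there, followed by Rpl10a at 29.4%. Rpl6 had the largest difference after Rpl22 between TET_KO and TET_WT on D0. Rpl5 and Rpl10a are not printed. The second listed start of Rpl22 is shown beside its first.
Rpl13a, chr7:45128726-45128995, minus strand: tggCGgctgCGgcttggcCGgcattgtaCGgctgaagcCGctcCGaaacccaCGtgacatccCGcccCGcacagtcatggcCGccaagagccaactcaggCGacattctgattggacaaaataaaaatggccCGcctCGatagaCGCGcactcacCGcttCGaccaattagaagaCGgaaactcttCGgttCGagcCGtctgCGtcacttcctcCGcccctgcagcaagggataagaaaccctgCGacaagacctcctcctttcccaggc
Rps18, chr17:33955646-33955915, minus strand: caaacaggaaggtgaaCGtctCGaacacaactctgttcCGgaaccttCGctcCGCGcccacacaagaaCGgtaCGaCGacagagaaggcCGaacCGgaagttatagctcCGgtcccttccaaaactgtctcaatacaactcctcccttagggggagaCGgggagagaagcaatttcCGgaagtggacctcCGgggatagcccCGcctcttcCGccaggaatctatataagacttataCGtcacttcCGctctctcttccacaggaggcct
Rpl22, first start, chr4:152324186-152324455, plus strand: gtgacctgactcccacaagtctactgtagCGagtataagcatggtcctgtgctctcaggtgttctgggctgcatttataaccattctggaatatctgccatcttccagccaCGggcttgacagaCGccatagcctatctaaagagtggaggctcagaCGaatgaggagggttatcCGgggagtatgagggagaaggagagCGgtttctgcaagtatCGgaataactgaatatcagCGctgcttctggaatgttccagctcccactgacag
Rpl22, second start, chr4:152325476-152325745, plus strand: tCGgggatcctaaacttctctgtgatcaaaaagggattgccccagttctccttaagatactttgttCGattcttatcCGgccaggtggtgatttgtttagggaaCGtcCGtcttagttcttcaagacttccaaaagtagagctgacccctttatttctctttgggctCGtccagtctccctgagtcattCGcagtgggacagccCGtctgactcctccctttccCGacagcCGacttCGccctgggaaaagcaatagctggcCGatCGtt
Rpl27, chr11:101441995-101442264, plus strand: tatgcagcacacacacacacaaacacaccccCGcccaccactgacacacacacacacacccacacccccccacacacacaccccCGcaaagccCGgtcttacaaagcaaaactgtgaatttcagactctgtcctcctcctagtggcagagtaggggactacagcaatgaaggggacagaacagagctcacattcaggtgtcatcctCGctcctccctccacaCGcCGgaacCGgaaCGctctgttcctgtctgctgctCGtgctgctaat
Rpl6, chr5:121204251-121204520, plus strand: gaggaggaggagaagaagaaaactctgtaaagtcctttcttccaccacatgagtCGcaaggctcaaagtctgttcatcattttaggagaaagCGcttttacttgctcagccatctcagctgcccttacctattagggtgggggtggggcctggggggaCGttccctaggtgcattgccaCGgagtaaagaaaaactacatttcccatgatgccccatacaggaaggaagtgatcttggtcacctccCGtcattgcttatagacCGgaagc

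These stretches hold 24 CpGs for Rpl13a, 19 for Rps18, 8 and 13 for the first and the second start of Rpl22, 9 for Rpl27 and 6 for Rpl6. The same stretch, not printed, holds 11 CpGs at Rpl5 and 17 at Rpl10a, so the count of CpGs does not sort the low starts from the high. In the full listed promoters, 300 bases long, the 43 ribosomal protein genes held a median of 22 CpGs (8 to 35) against 13 over 17492 genes. The letters CCGGAA, the core of sites bound by ETS factors, stood on either strand in 20 of 43 promoters (46.5%) against 19.1% of all promoters of that length. AAGATGGC, the core of sites bound by YY1, stood in 3 of 43 (6.98% against 3.21%), and TATAAA, the TATA box, in 2 (4.65% against 13.3%). CCGGAA holds a CpG and TATAAA holds none, and the shares were not matched for the CpG content of the promoters. These are matches of letters in one window of each gene and no binding was measured. None of the 3 motifs contains another.

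Windows that hold 100 CpGs are short where CpGs are dense. The 171 windows of the ribosomal protein genes had a median length of 1902 bp (373 to 7129) against 5050 bp over all windows. A gene had a median of 3 windows (2 to 7), against 6 for all genes, because the genes were short, with a median of 3352 bp (1066 to 9647) against 17492.5 bp. The shortest window was under 1 kb in 45 of 55 genes, and in 44.4% of all genes. The median window lay by 64.6% of its length in its gene, 99 of 171 windows lay mostly inside, and 35 also touched another protein-coding gene, so a gene mean includes flanking DNA.

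Over whole libraries, mean methylation on D0, D1 and D2 was 25.5, 33.3 and 52.5% in TET_WT, 51.7, 59.2 and 70.8% in TET_KO, and 3.20, 13.6 and 49.6% in DNMT_WT. The 3 libraries of a group had SDs of 0.0642 to 2.59 points around these means. DNMT_WT thus began D0 far below TET_WT, and no expression was measured that could check the knock-out or the cell state. Read depth is unknown, since the deposited values are percentages without counts.

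The short windows of the ribosomal protein genes, which hold the densest CpGs, were almost free of methylation in every line and on every day. Of the 171 windows, 54 were under 1 kb, and 10 of the 55 genes have none. The median of the 54 was 0.164% in TET_WT on D0, 0.209% in TET_WT on D2, 0.284% in TET_KO on D0, 0.371% in TET_KO on D2 and 0.310% in DNMT_WT on D2. The highest of these windows, at Rpl8, a protein of the core of the large subunit, reached 6.41% in TET_KO on D2, with 6.43, 6.09 and 6.71% in the 3 libraries. None of the 54 reached 10% in any group mean, whereas 9.23% of all 16219 windows of that length did in TET_KO on D2 and 4.67% did in TET_WT on D2.

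Taken as 1 value for each gene, the shortest window was under 1% in 53 of 55 genes in TET_WT on D0, in 44 in TET_WT on D2 and in 44 in TET_KO on D2. The median was 0.403% in TET_KO on D2, against 12.1% over all 21430 genes. Rpl23a, a protein at the rim of the peptide exit tunnel, had the highest value, with 14.1, 16.6 and 13.9% in the TET_KO libraries of D2. Rps3, which lines the entry of the mRNA, had 14.7, 13.8 and 13.7%, and Rpl21, a large subunit protein, had 14.4, 12.1 and 13.1%. These 3 genes were the only ones of the 55 whose shortest window reached 10% in that group. None has a shortest window under 1 kb. In limma's test on this measure no ribosomal protein gene was called higher in TET_KO than in TET_WT on D0, where 43.1% of all genes were, a call being a Benjamini-Hochberg adjusted p under 0.05 with a difference of at least 10 percentage points. None was called from D1 to D2 in TET_WT, DNMT_WT or TET_KO either, where 37, 46.6 and 26.2% of all genes were. Without the minimum difference, 8 of the 55 were higher in TET_KO than in TET_WT on D0 at an adjusted p under 0.05, against 59.3% of all genes.

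Single libraries could stand apart in these short windows. The shortest window of Rpl14 read 0, 17.6 and 0% in the DNMT_WT libraries of D1, and that of Rpl11, a partner of the 5S RNA, read 1.87, 10.4 and 0.865% in the TET_WT libraries of D0. That of Rpl28 read 0.263, 7.92 and 0.260% in TET_KO on D0. In each case 1 library was high and the other two were low, and the number of reads behind the high value is unknown.

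The window holding the listed start was under 1% in 29 of 43 genes in TET_KO on D2 and under 10% in 34. The other 9 were at 10.5 to 57.4%: Rpl22, Rpl27, Rpl10a, Rpl13, Rpl35a, Rps9, Rps3, Rpl19 and Rps15. In all 9 the start lay near the downstream edge of a window of 1160 to 3846 bp, with 0.442 to 24.0% of the window downstream of the start. The next window downstream was at 0.0344 to 6.17% in the same group. At Rpl22 the window of the first start (chr4:152322116-152325169) was at 57.4% in TET_KO on D2, and the window of the second start (chr4:152325213-152326084), of 872 bp, was at 0.187%. The window of the Rpl6 start (chr5:121204471-121205151), of 681 bp, was at 0.411%, although the 270 bases printed for it hold only 6 CpGs. Start windows at 10% or more thus held mostly upstream DNA, but so did some low ones. At Rpl15 and Rps6, 3.26 and 6.14% of the start window lay downstream, and these windows were at 0.412 and 0.893% in TET_KO on D2. The 34 start windows under 10% had a median length of 653 bp.

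Averaged over members with a listed start, methylation dipped at the start and climbed over several kilobases on both sides. In TET_WT on D2 the members stood at 36.0% ± 1.13 (SD, n = 3 libraries) 2 kb before the start, 4.34% ± 0.205 at the start, 2.69% ± 0.0739 at 500 bases after it, 12.7% ± 0.726 at 2 kb, 36.7% ± 1.91 at 5 kb and 55.3% ± 2.22 at 10 kb. For all genes with a listed start the values were 42.3, 24.4, 27.1, 40.4, 51.6 and 54.9% at the same places. The members lay below the average gene up to 5 kb into and past the gene, and at 10 kb the 2 averages differed by less than the SD between libraries. In TET_KO on D2 the members rose from 5.62% at the start to 24.5% at 2 kb and 57.3% at 5 kb. The median gene lay lower than these means at the start, at 0.361% in TET_WT and 0.422% in TET_KO on D2.

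**Figure D1:**
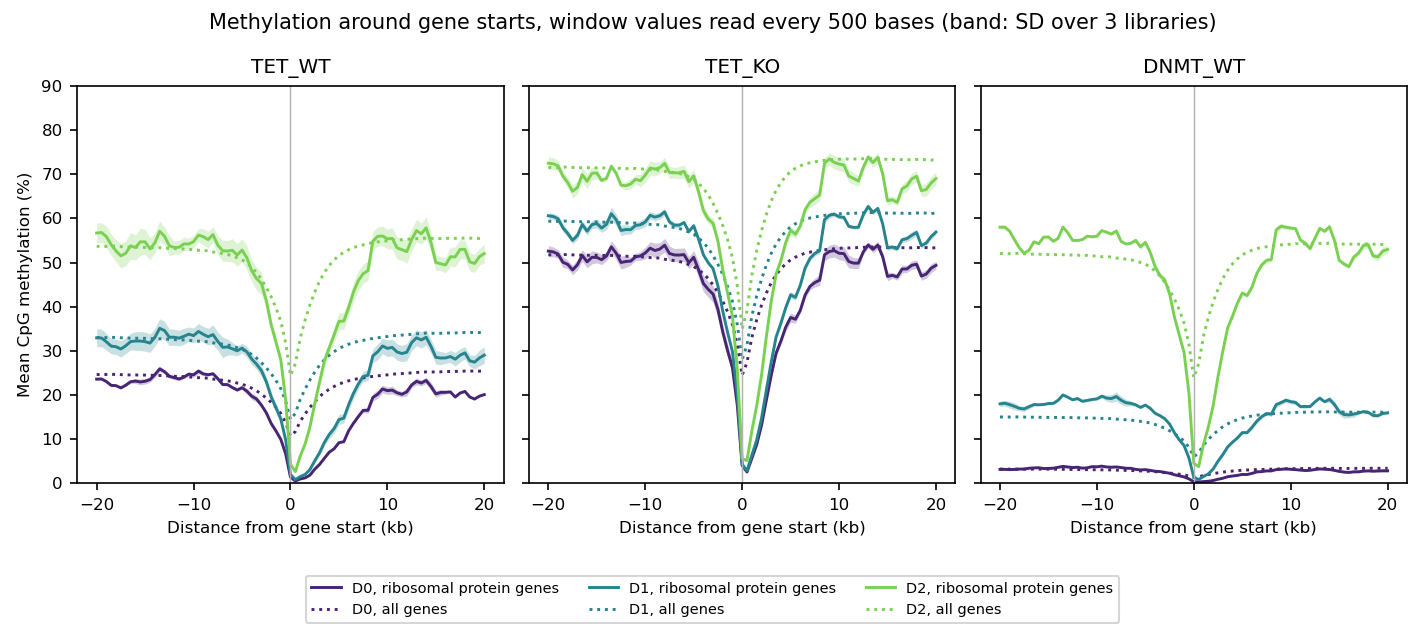
Mean CpG methylation (%) against distance from the listed gene start (kb) in TET_WT, TET_KO and DNMT_WT, for the ribosomal protein genes (solid lines, 42 or 43 genes, band: SD over 3 libraries) and all genes with a listed start (dotted), coloured by day. The solid lines fall to under 6% at the start on D2 in each line and stay below the dotted lines at 2 and 5 kb downstream.

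Over the whole gene body, the mean of all windows overlapping a gene, the ribosomal protein genes were low but not unmethylated. The mean over the 55 genes was 2.27% ± 0.0389 on D0, 3.62% ± 0.329 on D1 and 11.005% ± 0.387 on D2 in TET_WT (SD, n = 3 libraries). It was 11.2% ± 0.166, 12.6% ± 0.151 and 19.1% ± 0.278 in TET_KO, and 0.657% ± 0.0101, 3.16% ± 0.178 and 14.2% ± 0.137 in DNMT_WT. The median ribosomal protein gene stood higher than 1.26% of all genes in TET_WT on D0 and higher than 3.02% in TET_KO on D2. TET_KO on D0 and TET_WT on D2 thus had means that differed by 1 SD or less at these genes, at 11.15 and 11.005%.

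**Figure D2:**
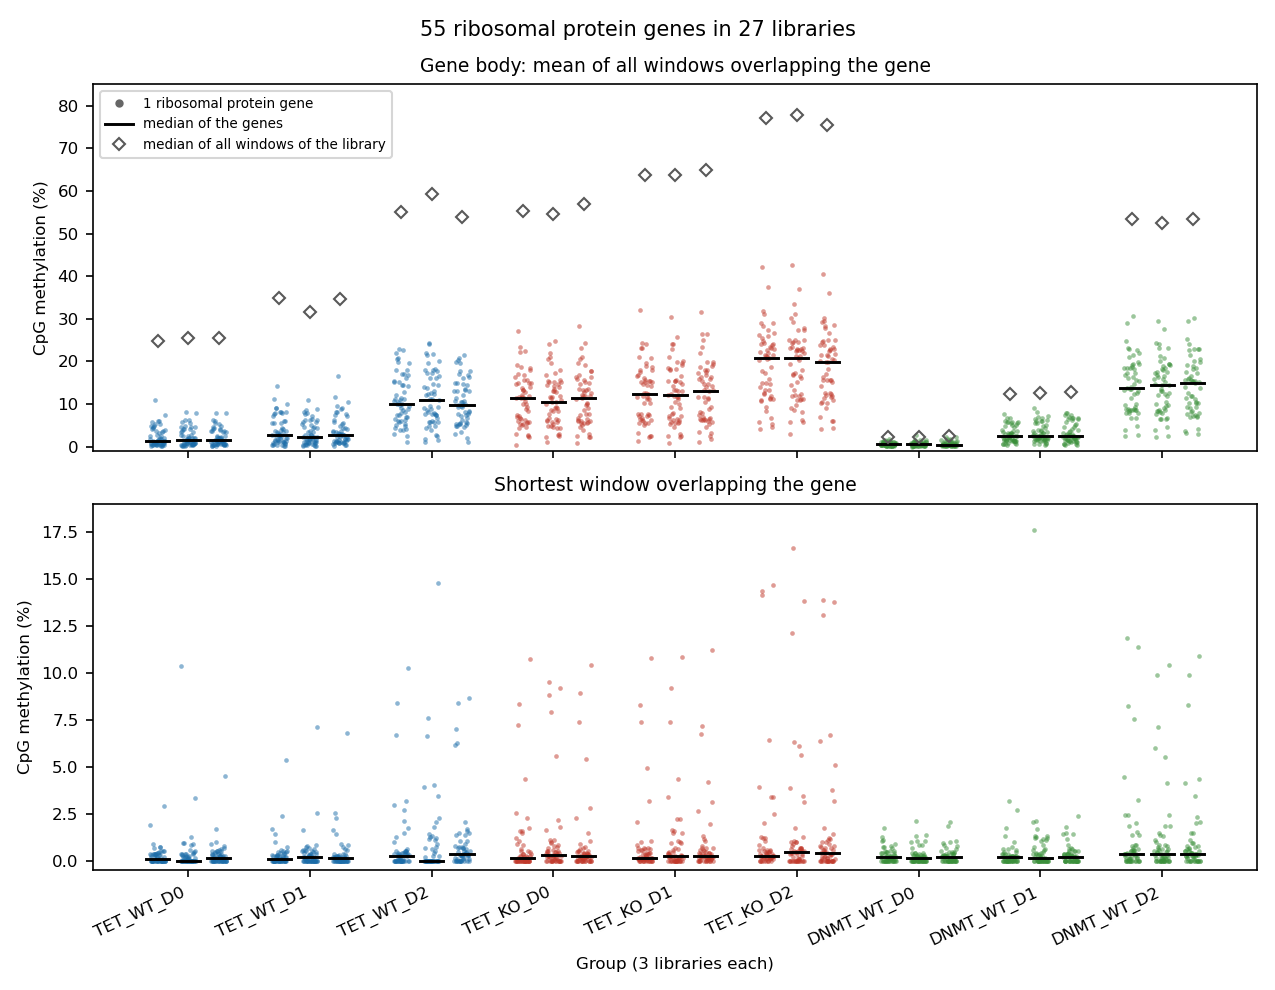
CpG methylation (%) of each of 55 ribosomal protein genes (points) in each of 27 libraries, as the mean of all windows of the gene body (top) and as its shortest window (bottom), with the median of the genes (bars) and the median of all windows of the library (diamonds). Gene bodies sit far below the diamonds except in DNMT_WT on D0, and the medians of the shortest windows stay under 1% throughout.

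The genes spread widely around these means. In TET_WT on D0 the lowest was Rpl12, which sits at the base of the stalk that recruits translation factors, at 0.189%. The highest there was Rpl29 at 9.04%, with 11.04, 8.22 and 7.87% in its libraries. Only 0.488% of the window that carried the Rpl29 value (chr9:106424400-106428910, at 25.4%) lies in the gene, and the other windows of Rpl29 were at 0.799 and 0.959%. In TET_KO on D2 the range ran from 3.797% ± 0.668 at Rpl13a, a large subunit protein, to 41.8% ± 1.04 at Rpl22, an RNA-binding protein of the large subunit that is needed for the development of αβ T cells. Of the 55 genes, 49 were at 10% or more in that group, 28 were in TET_WT on D2 and none were in TET_WT on D0.

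Loss of the Tet enzymes went with higher gene-body methylation at nearly all of these genes, but with differences far below those of other genes. On D0, 23 of 55 genes were called higher in TET_KO than in TET_WT, where 96.2% of all genes were. The median difference was 8.51 points at the ribosomal protein genes and 25.2 points over all genes. Without a minimum difference 54 of 55 were higher at an adjusted p under 0.05 (99.6% of all genes), with Rpl13a as the exception. All 55 differences lay below the difference in library medians, 30.4 points, so with each library centred on its median all 55 turned negative and 54 were called lower, where 23.6% of all genes were. Centring takes the same amount from every gene of a library, so a gene near 0% in both lines must turn negative. A centred value here gives only the change relative to the library median and shows no loss of methylation. Over windows mostly inside the gene, measured for 54 of the 55, the count called higher was 14. The share of all genes called by that measure is not given here.

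Rpl22 stood at 4.43, 4.19 and 4.32% in the TET_WT libraries of D0 and at 27.2, 24.2 and 28.3% in those of TET_KO. The groups did not overlap, and limma gave a difference of 22.2 points (SE 0.835, Benjamini-Hochberg adjusted p = 8.66e-19), which is -8.13 points once library medians are centred. The 6 windows of Rpl22 differed by unequal amounts. Those of 872 and 1557 bp after the first start differed by 0.283 and -0.184 points and 3 others by 16.1 to 43.1 points, and that of 3311 bp at the 3′ end (chr4:152332368-152335678) by 45.3 points (SE 2.06).

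Rpl6, a large subunit protein, stood at 6.12, 5.48 and 3.99% in TET_WT and at 22.4, 24.9 and 24.3% in TET_KO on D0. Its 3 TET_KO libraries all lay above those of TET_WT, by 18.7 points (SE 0.858, limma adjusted p = 2.95e-17) as deposited and -11.7 points after centring. The start window differed by -0.0553 points (SE 0.338), the inner window by 13.5 points (SE 1.61), and a window with 12.9% of its length in the gene by 42.6 points (SE 1.97).

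Rpl27, a large subunit protein, stood at 5.40, 4.91 and 5.90% in TET_WT and at 23.3, 22.1 and 23.2% in TET_KO, a difference of 17.4 points (SE 0.889, limma adjusted p = 2.49e-16) that becomes -12.9 after centring. Rps3 stood at 2.11, 1.97 and 2.38% against 18.03, 15.6 and 17.7%, a difference of 14.9 points (SE 0.747, limma adjusted p = 1.65e-16), or -15.4 after centring. In both genes the libraries of the lines did not overlap. At the other end, Rpl13a had 0.751, 0.100 and 0.546% in TET_WT and 0.373, 1.09 and 0.878% in TET_KO. These libraries overlapped, and the difference of 0.314 points (SE 0.568) had an adjusted p of 0.585 in limma. Rps21, a small subunit protein, differed by 1.87 points, Rps18, in its head, by 2.04 and Rps2, at the mRNA entry, by 2.29.

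**Figure D3:**
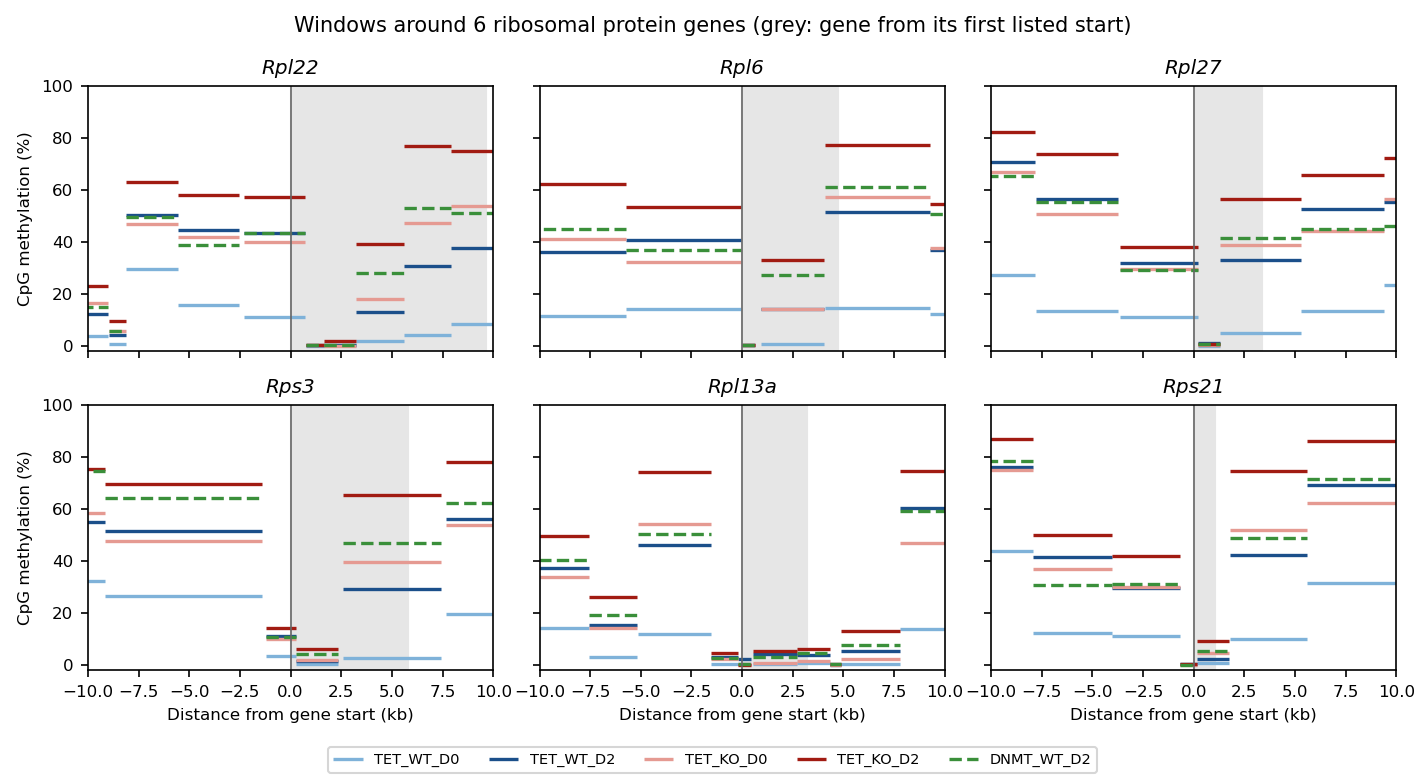
CpG methylation (%) of single windows (horizontal lines, mean of 3 libraries) against distance from the first listed start (kb) at Rpl22, Rpl6, Rpl27, Rps3, Rpl13a and Rps21, with the gene from that start in grey. Except at Rps3, the shortest window at or just after the start stays near 0% in the 5 groups drawn. The start window of Rps3, of 1479 bp, is at 14.1% in TET_KO on D2. TET_KO on D2 is highest in most longer windows at the 3′ ends, and the windows inside Rpl13a stay under 6%.

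By place in the ribosome, the called genes on D0 were spread over both subunits: 17 of 38 for the large and 6 of 17 for the small, against 96.2% of all genes, with median differences of 8.75 and 8.18 points. At the rim of the tunnel through which the new peptide leaves, 4 of 5 were called (Rpl26, Rpl35, Rpl19 and Rpl31), with Rpl26 at 15.8 points (SE 0.688, limma adjusted p = 1.07e-17, -14.6 after centring). Around the peptidyl transferase centre and the tunnel 2 of 4 were called, Rpl17 and Rpl4. Of the proteins that with 5S RNA form the particle that can bind Mdm2, Rpl5 was called and Rpl11 was at 8.36 points. Of the stalk proteins, Rpl10a was called at 13.6 points and Rpl12 was at 2.39. Among proteins of the head of the small subunit 2 of 7 were called (Rps20 and Rps16), in its body and platform 3 of 6 (Rps6, the target of S6 kinase, Rps7 and Rps24), and around mRNA entry and decoding 1 of 4 (Rps3). These groups are small, and no difference between them was tested.

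On D1 the count was again 23 of 55 (96.1% of all genes), with a median difference of 9.03 points against 24.4, and on D2 it was 16 of 55 (85.8%), with 7.62 against 14.9. Library medians differed by 30.3 and 20.7 points on these days, and after centring 54 and 43 of the 55 genes were called lower (26.8 and 18.4% of all genes). Over windows mostly inside the gene the count on D1 was 14 of 54, and with windows weighted by overlap the count on D2 was 26 of 55. The shares of all genes above do not apply to these other measures. Rpl22 kept the largest difference on D2, with 20.6, 21.4 and 20.3% in TET_WT and 42.1, 42.6 and 40.6% in TET_KO, 21.0 points (SE 0.835, limma adjusted p = 3.33e-17), and it was the only gene above the difference in library medians, by 0.240 points. Rpl6 differed by 14.9 points on D2 (SE 0.858, limma adjusted p = 1.53e-14), or -5.80 after centring.

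Rpl15, a large subunit protein mutated in some cases of Diamond-Blackfan anaemia, was the only gene of the 55 that was lower in TET_KO on D2 at an adjusted p under 0.05 (0.084% of all genes). It stood at 11.2, 12.1 and 11.3% in TET_WT and at 10.8, 9.02 and 10.3% in TET_KO. The libraries did not overlap, and the difference was -1.54 points (SE 0.480, limma adjusted p = 0.00376). With the p-value taken on log ratios the adjusted p was 0.0846. The whole difference stood in the window of 5135 bp over its 3′ part (chr14:18265212-18270346), which was at 33.9% in TET_WT and 29.1% in TET_KO, and 49.2% of that window lies in the gene. On D0 the same window was lower in TET_WT, at 11.9 against 19.9%.

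From D0 to D1 the ribosomal protein genes moved little. No gene was called in TET_WT, DNMT_WT or TET_KO, where 13.7, 55.6 and 2.88% of all genes were called higher. Median differences were 1.02, 1.98 and 1.28 points against 7.43, 10.9 and 6.91 over all genes. Without a minimum difference 24, 42 and 23 of the 55 genes were higher (94.2, 91.4 and 94.7% of all genes). Library medians rose by 8.46, 10.3 and 8.43 points, more than any of the 55 genes, so all 55 turned negative after centring. Rpl29 had the largest rise in TET_WT, 4.86 points (SE 1.21, limma adjusted p = 0.000618), from 11.04, 8.22 and 7.87% to 14.3, 10.9 and 16.5%. Its libraries overlapped between the days, and the rise was 0.289 points over windows mostly inside the gene and -3.60 after centring.

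From D1 to D2 all 55 genes rose in TET_WT, DNMT_WT and TET_KO at an adjusted p under 0.05 in limma (99.3, 99.9 and 99.3% of all genes), and no library of D1 reached one of D2 at any of them (98.9, 99.9 and 99% of all genes). Fewer were called at 10 points: 11 in TET_WT (90.3% of all genes), 33 in DNMT_WT (97.4%) and 7 in TET_KO (52.1%). With windows weighted by overlap the counts in TET_WT and TET_KO were 20 and 20, and over windows mostly inside the gene the count in DNMT_WT was 17 of 54. The shares of all genes above do not apply to these other measures. The median rise was 7.31, 11.3 and 6.25 points against 18.8, 33.8 and 10.1 over all genes. The rises fell short of those of the library medians, 22.4, 40.5 and 12.8 points, at all 55 genes, so the direction is negative relative to the library median in each line, and 50, 55 and 3 genes were then called lower (16.3, 36.4 and 1.51% of all genes).

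In TET_WT the largest rises were those of Rpl6 (13.8 points, SE 0.858, limma adjusted p = 2.90e-14), Rpl27 (13.3, SE 0.889), Rpl3, the protein next to the peptidyl transferase centre (12.96, SE 0.862), and Rpl22 (12.9, SE 0.835). After centring these were -8.59, -9.13, -9.44 and -9.46 points. Rpl3 went from 3.32, 3.33 and 3.30% to 15.1, 16.1 and 17.7%. Rpl3 has no listed start. Its shortest window, of 879 bp at an end of the gene, changed by -0.113 points, and the window across the other end was at 44.2% on D2. The smallest rises were those of Rps21 (1.03 points), Rps2 (1.29), Rpl12 (2.07), Rpl34 (2.76) and Rpl13a (3.29).

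In DNMT_WT, Rpl6 went from 5.72, 6.74 and 6.74% to 30.7, 27.7 and 30.2%, by 23.1 points (SE 0.858, limma adjusted p = 1.53e-19, -17.4 after centring), and Rpl22 from 5.93, 6.04 and 7.85% to 28.9, 29.6 and 29.4%, by 22.7 points (SE 0.835, limma adjusted p = 1.24e-19, -17.8 after centring). In both genes every library of D2 was above every library of D1. In TET_KO, Rpl3 rose by 11.8 points (SE 0.862, limma adjusted p = 2.18e-11), from 14.7, 14.1 and 13.4% to 24.4, 24.9 and 28.4%, and Rpl6 by 11.4 points (SE 0.858, limma adjusted p = 3.40e-11), with values of -0.939 and -1.40 after centring. The count of 7 was 4 without replicate 2 of TET_KO on D1. The others called in TET_KO were Rpl7, Rpl23, Rpl22, Rps10 and Rpl24.

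The genes that differed most between TET_KO and TET_WT on D0 also rose most in DNMT_WT from D1 to D2. These 2 comparisons share no library. Over the 55 genes Pearson's r was 0.925 and Spearman's rho 0.914, across genes that share windows and window length between the comparisons and are not independent replicates. Rpl13a and Rps21 were the lowest in both, at 0.314 and 1.87 points and at 2.01 and 2.19 points, and Rpl22, Rpl6 and Rpl27 were the 3 highest in both. Both sets of differences are negative after centring on library medians.

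**Figure D4:**
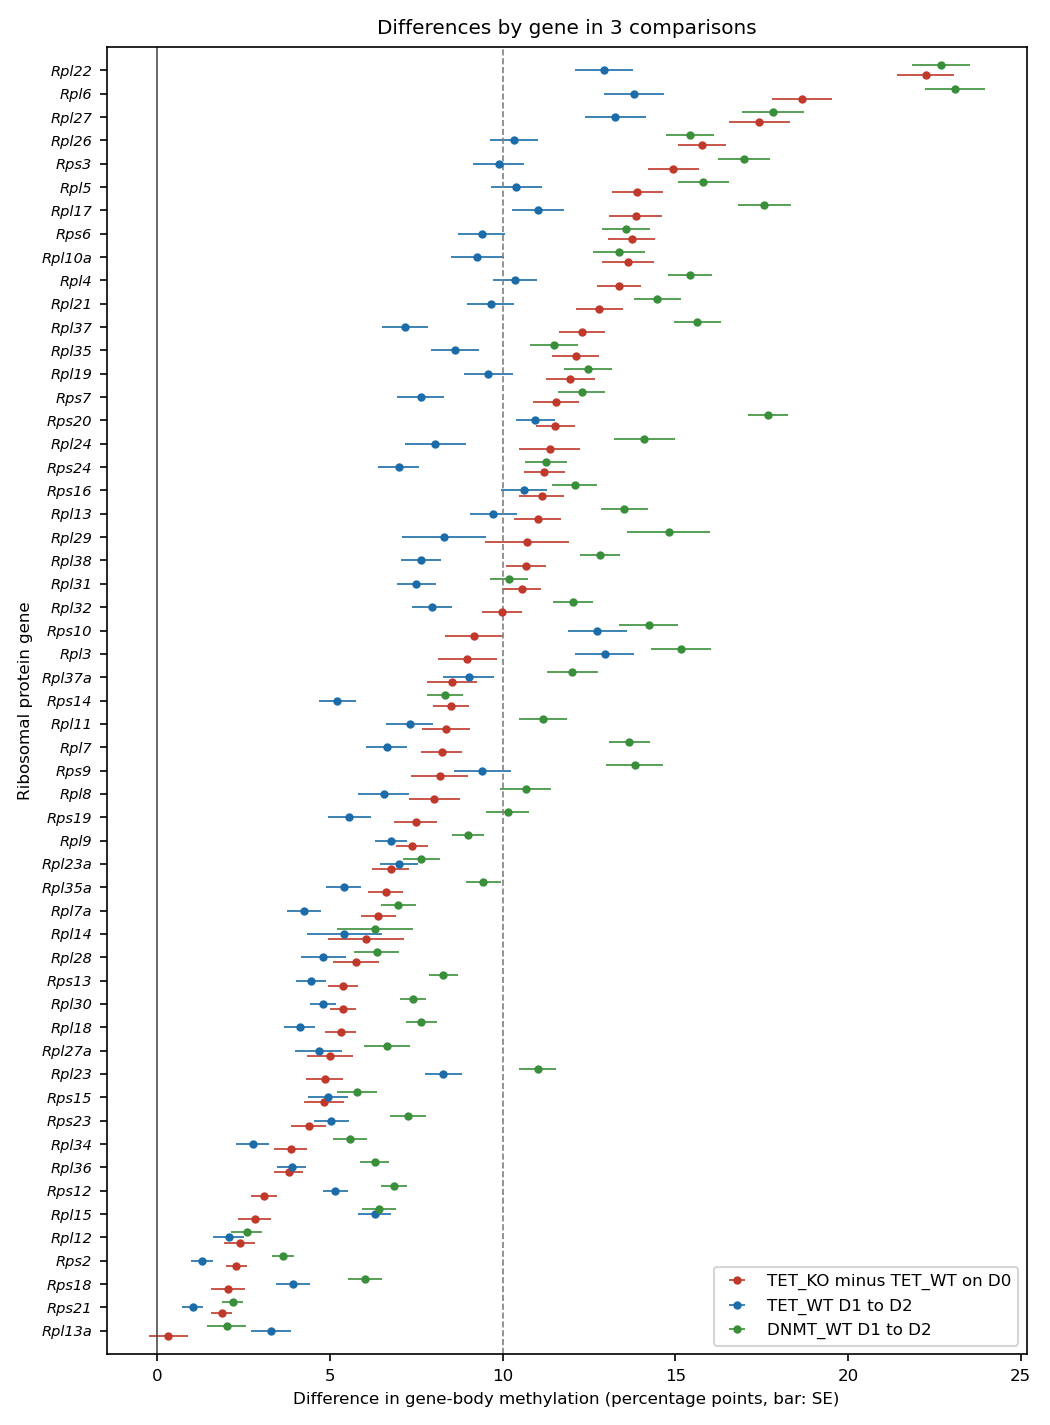
Difference in gene-body methylation (percentage points, bar: SE) of each ribosomal protein gene for TET_KO minus TET_WT on D0 (red), TET_WT from D1 to D2 (blue) and DNMT_WT from D1 to D2 (green), with the genes ordered by the red points and a dashed line at 10 points. Rpl22, Rpl6 and Rpl27 lie at one end and Rpl13a and Rps21 at the other. All points are above 0 as deposited, and all are below 0 once libraries are centred on their medians.

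DNMT_WT ended with higher methylation than TET_WT at these genes, although its libraries did not. On D0, DNMT_WT was lower at 25 of 55 genes at an adjusted p under 0.05 in limma (98.1% of all genes). Library medians fell short by 22.9 points, and after centring all 55 genes were called higher in DNMT_WT (24% of all genes). No gene of the 55 stood above 9.04% in TET_WT on D0, so none could fall by 22.9 points. The centred sign was thus set in advance and shows no reversal. None of the 55 were called at 10 points, where 84.8% of all genes were called lower. On D1, 11 were lower and 3 higher (95.4 and 0.117% of all genes), and none were called (74.1% of all genes lower), while after centring all 55 were again called higher (30% of all genes). The highest of the 55 stood at 13.9% in TET_WT on D1, and library medians differed by -21.0 points, so that sign was set in advance too. On D2, 42 of 55 were higher (18.7% of all genes) and 1 was lower (24.1%), and none were called at 10 points (0.621% of all genes higher and 3.12% lower). The median difference on D2 was 3.19 points against -0.275 over all genes and -2.97 points in library medians, and after centring 3 of the 55 were called, all of them higher (2.51% of all genes). At 41 of the 55 genes all 3 DNMT_WT libraries were above all 3 of TET_WT, against 16.1% of all genes. The lines are 2 separate wild-type lines, so line, batch and culture cannot be told apart here.

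Rpl37, a zinc-binding large subunit protein, had the largest difference on D2, with 18.6, 18.1 and 18.9% in DNMT_WT and 7.89, 7.58 and 10.5% in TET_WT, 9.90 points (SE 0.672, limma adjusted p = 8.98e-11). It came from the window of 4070 bp downstream (chr15:5117378-5121447), at 36.5 against 17.1%, of which 43.3% lies in the gene. The start window of Rpl37 was at 0.547 against 0.149%. Rpl22 (8.51 points), Rpl6 (7.58) and Rps3 (6.73) followed. Rpl15 was the one gene lower in DNMT_WT, with 8.83, 7.67 and 7.58% against 11.2, 12.1 and 11.3%, -3.52 points (SE 0.480, limma adjusted p = 2.66e-06), again in its window of 5135 bp alone (-11.01 points), and -0.548 points after centring (adjusted p = 0.622). On D0, Rpl29 had the largest difference, -7.10 points (SE 1.21, limma adjusted p = 4.41e-06), with 1.39, 2.65 and 1.79% in DNMT_WT. That difference was -0.125 points over windows mostly inside Rpl29 and 15.8 points after centring, where the positive sign was set in advance.

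Set against windows of equal length, the ribosomal protein windows were lower in every class. Between 1 and 3 kb, the median of 67 windows was 4.34% in TET_WT on D2 and 8.84% in TET_KO on D2, against 54.3 and 75.3% over 58277 windows of that length. Between 3 and 8 kb, the median of 50 windows was 27.9 and 51.3% against 60.7 and 79.4%. No window of these genes was longer than 8 kb. For TET_KO against TET_WT on D0, 0 of 54 windows under 1 kb, 17 of 67 between 1 and 3 kb and 38 of 50 between 3 and 8 kb were called higher by limma, against 4.69, 81.0 and 98.5% of all windows of these lengths and 92.9% of all windows. The calls thus lay in the longer windows, at lower shares than in their classes, and the median difference of the 50 longest, 24.6 points, was below that of the library medians.

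The longer windows had larger median differences than all windows of their length from D1 to D2 in TET_KO and for DNMT_WT against TET_WT on D2. From D1 to D2 in TET_KO, 40 of 50 windows between 3 and 8 kb were called higher against 67.6% of the class (65.8% of all windows), with a median rise of 15.2 against 11.5 points. These windows started D1 at 34.2% against 67.4%. For DNMT_WT against TET_WT on D2, 16 of 50 were called higher and 1 lower, against 1.67 and 9.47% of the class (1.78 and 10.5% of all windows), with a median of 5.44 against -2.62 points. The 16 windows belonged to 16 genes, among them Rpl37 (19.4 points), Rps3 (17.9), Rpl5 (17.7), Rpl38, which is needed for the translation of Hox mRNAs (15.6), Rps7 (15.1) and Rps19, the gene most often mutated in Diamond-Blackfan anaemia (13.6).

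The low stretch around the shortest window of a gene was measured as the run of neighbouring windows under 10% that includes it. From D0 to D2 the run was narrower at 45 genes, as wide at 10 and wider at 0 in TET_WT, and narrower at 17, as wide at 38 and wider at 0 in TET_KO, by the median of the 3 libraries. This count was not made over all genes. The lines also began D0 from unlike median widths, 7209 bp in TET_WT and 2436 bp in TET_KO, so the counts of the lines are not like for like. The median run of all 9506 genes with a shortest window under 1 kb also narrowed, as given below. The median width of the run over the 55 genes was 7209 bp ± 225 (SD, n = 3 libraries) in TET_WT on D0, 6027 bp ± 40.4 on D1 and 2436 bp ± 37.5 on D2. In TET_KO it was 2436 bp ± 37.5 on D0, 2334 bp ± 132 on D1 and 1717 bp ± 94.1 on D2, and in DNMT_WT on D2 it was 2082 bp ± 66.1. The 3 libraries of TET_WT on D0 and D1 lay above all libraries of TET_KO. Where the shortest window is under 1 kb, the run can be set beside that of all 9506 such genes. Over the 45 ribosomal protein genes of this kind the median was 7209 bp ± 225, 5565 bp ± 359 and 2437 bp ± 43.3 in TET_WT on D0, D1 and D2, 2418 bp ± 9.81, 2322 bp ± 136 and 1799 bp ± 130 in TET_KO, and 2120 bp ± 0.577 in DNMT_WT on D2. For all 9506 genes it was 3290, 2248 and 1156 bp in TET_WT, 1133, 1032 and 906 bp in TET_KO and 1001 bp in DNMT_WT on D2. In each of these 7 groups the lowest library of the 45 genes was above the highest library of all such genes. Widths move in steps of whole windows: at Rpl6 the run was 4091 bp in TET_WT on D0 and D1 and 681 bp, the start window alone, in the other 5 groups. At Rpl13a it was 9339 bp in 6 of the 7 groups and 6422 bp in TET_KO on D2. At Rpl15, Rpl26 and Rpl37a the run kept 1 width in all 7 groups, 1649, 2774 and 2681 bp.

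**Figure D5:**
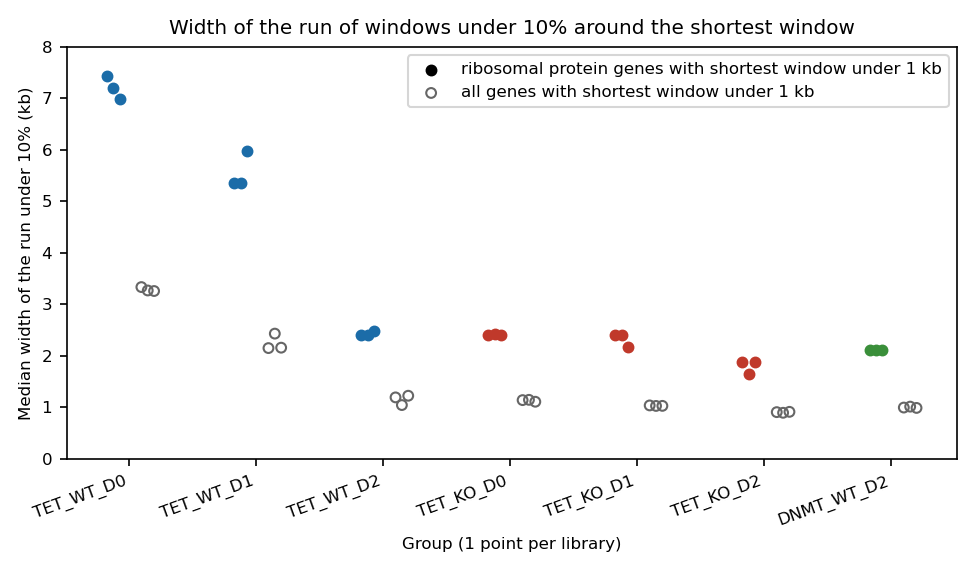
Median width (kb) of the run of windows under 10% around the shortest window of a gene, 1 point per library, for the 45 ribosomal protein genes (filled) and all 9506 genes (open) with a shortest window under 1 kb, in 7 groups. Filled points of TET_WT average 7209 bp on D0 and 2437 bp on D2, and in each group they sit above the open points. DNMT_WT on D0 and D1 are not drawn.

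From D0 to D2 the median ribosomal protein gene gained about as much in TET_KO as in TET_WT, as deposited. The difference of the gains had a median of 0.05 points at these genes and -9.44 points over all genes, and library medians differed by -9.64 points, so that all 55 values are positive after centring and 23 are then called higher (11% of all genes). None of the 55 were called at 10 points, where 46.3% of all genes were called lower and 1.26% higher. At any size, limma found 17 genes with a smaller gain in TET_KO (78% of all genes) and 8 with a larger one (5.21%). Rpl27 had the most negative value, -7.68 points (SE 1.26, limma adjusted p = 5.14e-06), or 1.96 after centring, having started D0 in TET_KO at 22.8% ± 0.678. Rpl7, a large subunit protein, had the most positive value, 5.09 points (SE 0.835, limma adjusted p = 5.26e-06). It went from 1.98, 1.03 and 1.95% to 8.57, 7.81 and 10.6% in TET_WT and from 10.7, 9.11 and 9.83% to 21.98, 22.6 and 22.4% in TET_KO. The difference lay in its longer window (chr1:16100445-16103456), at 9.76 points (SE 1.72), and not in the shorter one, at 0.425 points (SE 0.509).

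The other 26 cytoplasmic ribosomal protein genes, which are not among the 55, had like values: 11 of 26 were called higher in TET_KO on D0, where 96.2% of all genes were, with a median of 8.70 points. Genes of the mitochondrial ribosome were not similar, with 69 of 78 called and a median of 20.7 points. Of translation factor genes 26 of 33 were called (23.1 points), of ribosome biogenesis genes 34 of 36 (26.7), of other ubiquitously expressed genes 22 of 28 (20.5), and of paralogues such as Rpl3l and Rpl10l, which stand in for ribosomal proteins in muscle and testis, 6 of 6 (23.1). From D1 to D2 in TET_WT, where 90.3% of all genes were called, the 26 had 7 called and a median of 6.27 points, the mitochondrial genes 63 of 78 and 15.3 points. For DNMT_WT minus TET_WT on D2 the 26 had a median of 2.08 points, the translation factors 4.12, the biogenesis genes 3.32 and the ubiquitous genes 3.38, so the positive sign at the 55 genes (3.19) was shared with these lists. No list was tested against another.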

How the data were processed

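Whole-genome bisulfite libraries of 9 groups, 3 libraries each, were analysed. Per the labels' protocols, sheared genomic DNA was ligated to methylated adapters, converted with bisulfite and amplified. The submitters' processing notes name Trim Galore 0.6.6, cutadapt 2.3, Bismark 0.23.0 and the build GRCm38. The authors deposited the percent of methylated CpG in windows of 100 CpGs. How a window was filled, and any filter on coverage, is not given in the sources used here. No counts come with the percentages, so depth is unknown and errors are SDs or SEs over libraries.

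Each gene's value averages all windows that touch its body, among windows with a value in all 27 libraries. Differences were tested with limma 3.58.1 in R 4.3.3 on the percentages, with a mean-variance trend, 1 fit of 27 libraries with 18 residual degrees of freedom and Benjamini-Hochberg adjustment over all 21430 genes, or over all windows. A call needs both a difference of 10 points or more and an adjusted p under 0.05. The code was tested on simulated data. Python 3.11.15, numpy 2.4.6, pandas 2.3.3 and matplotlib 3.10.9 were used for the rest. The alternatives were centring on library medians, a log2 ratio with an offset of 1 for the p-value, other gene measures, other filters, fewer groups, a replicate block and leaving out each library. Named genes are up to 10 with the largest and up to 5 with the smallest difference in a comparison, and any that went against the majority. Other genes of the 55 are given as examples of a group. Sequences and starts are from RefSeq (GRCm38.p6). The members, the other gene lists and the tests were chosen with earlier results of these data known. Replicate numbers were checked for pairing and pair no libraries.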

Additional observations from a re-analysis of the deposited data

Results flagged for a closer look

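The gain of methylation from D0 to D2 differed between TET_KO and TET_WT at 25 of the 55 genes by limma's interaction term, at a Benjamini-Hochberg adjusted p under 0.05 over all genes, with no minimum size. The values are the gain in TET_KO minus the gain in TET_WT, in percentage points of gene-body methylation, with 3 libraries in each group.

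The gain was smaller in TET_KO, as deposited, at 17 genes (78% of all genes). At all 17 genes the value turns positive once libraries are centred on their medians. For proteins of the large subunit these were Rpl27 (-7.68), Rpl26 (-5.67), Rpl17 (-5.60), Rpl13 (-4.79), Rpl15 (-4.36), Rpl19 (-4.35), Rpl37a (-4.07), Rpl6 (-3.73), Rpl10a (-2.69), Rpl9 (-2.49), Rpl5 (-2.47), Rpl31 (-2.23), Rpl4 (-1.94). For proteins of the small subunit they were Rps6 (-6.34), Rps20 (-5.81), Rps16 (-4.45), Rps10 (-2.85).

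The gain was larger in TET_KO at 8 genes (5.21% of all genes), which stay positive after centring. For the large subunit these were Rpl30 (1.46), Rpl23 (2.65), Rpl24 (2.75), Rpl7 (5.09). For the small subunit they were Rps2 (1.29), Rps13 (1.32), Rps21 (1.77), Rps19 (3.03). All 25 values lie above the difference of the gains of the library medians, -9.64 points. No value reached 10 points, where 46.3% of all genes were called lower.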

How the results depend on the processing

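Counts of called genes among the 55 were unchanged with a log2 ratio for the p-value, with only the groups compared, with windows that lack values kept, and with the replicate block (11, 33 and 7 genes from D1 to D2 in TET_WT, DNMT_WT and TET_KO, and 23, 23 and 16 for TET_KO against TET_WT on D0, D1 and D2). These settings leave the differences at the 55 genes as they were, so only the p-values could have moved the counts. The replicate numbers do not pair the libraries: deviations of 108 same-numbered pairs correlated by -0.0549 to 0.0570, and 9 of 27 libraries correlated best with their own number. Leaving out 1 library gave 8 to 15, 30 to 33 and 4 to 7 genes from D1 to D2 in TET_WT, DNMT_WT and TET_KO, 23 to 24, 21 to 24 and 15 to 17 for TET_KO against TET_WT, 0 to 1 for DNMT_WT against TET_WT on D2 (1 without replicate 2 of DNMT_WT or replicate 3 of TET_WT) and 0 otherwise. Centring takes the same amount from every gene of a library, so at genes near 0% the centred sign follows from the shift of the library medians. With libraries centred on their medians the called direction turned to lower at 50, 55 and 3 genes from D1 to D2 in TET_WT, DNMT_WT and TET_KO and at 54, 54 and 43 in TET_KO against TET_WT on D0, D1 and D2. For DNMT_WT against TET_WT 55, 55 and 3 were then higher, the median turning from negative to positive on D0 and D1 and rising from 3.19 to 6.17 points on D2, and 23 had a larger gain in TET_KO, with the median rising from 0.05 to 9.69 points. Centred values for TET_KO minus TET_WT on D0 were Rpl22 -8.13, Rpl6 -11.7, Rpl27 -12.9, Rpl26 -14.6, Rps3 -15.4 and Rpl13a -30.1, with Rpl6 at -5.80 on D2. From D1 to D2 they were Rpl6 -8.59, Rpl27 -9.13, Rpl3 -9.44 and Rpl22 -9.46 in TET_WT, Rpl6 -17.4 and Rpl22 -17.8 in DNMT_WT, and Rpl3 -0.94 and Rpl6 -1.40 in TET_KO. Rpl29 was at -3.60 for D0 to D1 in TET_WT and 15.8 for DNMT_WT minus TET_WT on D0, and the gain of Rpl27 at 1.96. With no minimum difference, 24, 42 and 23 genes changed from D0 to D1 in TET_WT, DNMT_WT and TET_KO, 55 in each line from D1 to D2, 54 on each day for TET_KO against TET_WT, 25, 14 and 43 for DNMT_WT against TET_WT, and 25 in the gain. The setting of the gene start window took the shorter end window at the 12 genes without a listed start. It gave 3, 6 and 2 genes from D1 to D2, 5, 4 and 2 for TET_KO against TET_WT, 1 for DNMT_WT against TET_WT on D2 and 2 in the gain. There Rpl6 was at -0.0553 and Rpl13a at -0.0507 on D0, and Rpl15 at 0.163 (TET_KO) and 0.517 (DNMT_WT) minus TET_WT on D2. Rpl3, by its shorter end window, was at -0.113 from D1 to D2 in TET_WT. Weighting windows by overlap gave 20, 37 and 20 genes from D1 to D2, 24, 26 and 26 for TET_KO against TET_WT, 5 for DNMT_WT against TET_WT on D2 and 2 in the gain. Windows mostly inside the gene, measured for 54 genes, gave 8, 17 and 9 from D1 to D2, 14, 14 and 16 for TET_KO against TET_WT and 2 for DNMT_WT against TET_WT on D2, with Rpl15 at 0.0677 on D2. The shortest window, added after seeing the data, gave 0 in every comparison, with Rpl6 at -0.0553, Rpl13a at -0.0507, Rpl15 at 0.0677, Rpl3 at -0.113, and Rpl29 at -0.711 (D0 to D1) and 0.145 (DNMT_WT). Run widths at thresholds of 5 and 20%, also added after seeing the data, were 4947 and 15235 bp in TET_WT on D0, 1676 and 4045 bp on D2, and 1094 and 2451 bp in TET_KO on D2. Apart from the centring and the choice of windows, the cause of these changes was not tested. For the start window, the weighting by overlap and the windows mostly inside the gene, the share of all genes called is not given here. Depth is unknown, so it is not known which short windows rest on few reads.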

Other observations

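Pseudogenes named after ribosomal protein genes, a list chosen after values were seen, had a higher median methylation on D2 than the gene bodies of the 55 genes in each line. RefSeq names 246 of them from 44 parent genes among the 55, and their windows had a median length of 4970 bp. Their median methylation was 27.1, 36.7 and 56.9% in TET_WT on D0, D1 and D2, 57.7, 65.8 and 78.2% in TET_KO, and 2.67, 14.1 and 54.0% in DNMT_WT. In TET_WT, 7 of 246 were under 10% on D0 and 2 on D1, while in DNMT_WT 233 were on D0 and 73 on D1. On D2 none were in any of the 3 lines. The windows of the pseudogenes also hold DNA around them, and Rpl7a-ps12 and Rps7-ps3 had the same values. Over all windows the library medians on D2 averaged 56.1% in TET_WT, 76.8% in TET_KO and 53.1% in DNMT_WT, close to the medians of the pseudogenes. All windows had a median length of 5050 bp. No test was run on the pseudogenes.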
